A study of Mus musculus with 12 samples.

Results

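Oxidative phosphorylation is carried out by 5 protein complexes of the inner mitochondrial membrane, and its genes are described here in primary mouse brain cultures that were heterozygous or wild type for *Myt1l*, the gene of a neuronal zinc finger transcription factor. Members were taken by name from the count table: nuclear genes of the *Nduf*, *Sdh*, *Uqcr*, *Cox4* to *Cox8* and *Atp5* families, and the protein-coding genes of the mitochondrial genome, whose names begin with mt-. After 13 names marked as pseudogenes were left out, 102 of 55397 genes remained, 89 nuclear and 13 mt-. Of these, 96 passed the filter on low counts, namely 83 nuclear and all 13 mt- members.

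The HET cultures came from 3 *Myt1l* (+/−) newborn pups (animals 505, 506 and 508) and the WT cultures from 3 (+/+) pups (animals 510, 511 and 513), with 2 RNA libraries per animal that were summed. The mutant allele was a 7 bp deletion in exon 6 made with Cas9 in zygotes, which shifts the reading frame. The study describes no loss of the mutant message, so *Myt1l* counts cannot check the genotype. All cultures received 2 µM Ara-C, an inhibitor of dividing cells, 3 days after plating, and the study's methods give harvest at day 11 in vitro. The labels name cortex, C57BL/6J and male pups, whereas the paper names hippocampus and C57BL/6N, and WT animal 511 had 18805 counts of *Xist*, which marks female cells, against 5 to 10 in the other animals. No source used here says what sets the 2 libraries of an animal apart, and for these RNA libraries the litter and the culture preparation of each animal were not found in the labels.

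Electrons from NADH enter at complex I and those from succinate at complex II, pass through complex III to complex IV, which reduces oxygen, and the proton gradient built on the way drives ATP synthase, complex V. Complexes I, III, IV and V mix subunits from both genomes, and complex II is nuclear throughout. The mitochondrial DNA is transcribed from both strands as long precursors that are cut at the tRNAs between the messages. Neurons depend heavily on this pathway for the cost of ion pumping and transmission, while astrocytes rely more on glycolysis.

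Each animal gave 40642699 to 52833161 counts, and each library 20181477 to 26594444. CPM values are counts scaled to the TMM-normalised library size, and fold changes are HET over WT on the log2 scale with their standard error (SE). By edgeR's quasi-likelihood test with Benjamini-Hochberg adjustment over all 18264 genes tested, 0 genes (0%) and 0 of the 96 members had an adjusted p under 0.1, and the smallest adjusted p over all genes was 0.166. At an unadjusted p under 0.05, 1 member was higher in HET (*Cox7a1*) and 3 were lower (*mt-Nd6*, *Cox5a*, *Cox6a2*), where 13.2% of all genes were higher and 9.11% lower. No member was therefore called by this test, which does not show that the members were unchanged. The following values are given with that in view.

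The pattern common to most members was a small shift below WT of the nuclear subunits. Over all nuclear members the mean log2 deviation of HET from WT was -0.077, within the SD of animals within a genotype (0.0948). By complex, it exceeded that SD in II (-0.12 against 0.084) and narrowly in III (-0.0996 against 0.0967), with overlap between genotypes in each. These deviations are taken from 0, the WT mean, whereas all genes tested averaged 0.047 on the same measure (SD 0.016). Of the 96 members, 71 had a negative fold change, against 9064 of all 18264 genes, with a median of -0.08 for the members and 0.0031 for all genes. The nuclear members had a median of -0.08 (66 of 83 negative), and the mt- members a median of 0.09 (5 of 13 negative). In 2 members every HET animal lay above every WT animal, where 15.5% of all genes did so, and in 5 members every HET animal lay below, where 13.5% did so. These were 2.08% and 5.21% of the members tested.

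*mt-Nd6* had the smallest p of all members. It encodes a membrane subunit of complex I and is the only message read from the minus strand of the mitochondrial reference sequence (chrM:13552-14070, one exon, minus strand, mm10). Its levels were 41.1, 32.3 and 31.0 CPM in HET animals 505, 506 and 508, against 65.0, 78.4 and 48.5 CPM in WT animals 510, 511 and 513. The genotypes did not overlap, although WT 513 lay closer to HET 505 than to either other WT animal. The mean was 34.8 ± 5.53 CPM in HET and 63.9 ± 15.0 CPM in WT (SD, n = 3 each), and the fold change was -0.88 (SE 0.19, edgeR adjusted p = 0.166). The library counts were 620 to 958 in the 6 HET libraries and 1033 to 1819 in the 6 WT libraries.

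Whether *mt-Nd6* passed the threshold of 0.1 turned on the test, on the low-count filter and on 1 animal. DESeq2 on the same 6 animals gave -0.89 with an adjusted p of 0.00257, in a fit that placed 8.01% of genes higher and 4.57% lower in HET. Without the filter on low counts, edgeR gave -0.89 with an adjusted p of 0.0196. Adding genetic sex, read from *Xist*, gave -0.71 in both tools, with an adjusted p of 0.0635 by DESeq2 and 0.49 by edgeR. Without WT 513, edgeR gave -1.06 with an adjusted p of 0.0181, in a fit that called 12.3% of genes higher and 5.95% lower, whereas without any other single animal it ran from -1.02 to -0.71 with adjusted p of 0.204 to 0.485.

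The *mt-Nd6* message faces *mt-Nd5*, a far more abundant message of the other strand, and both genes share 14 bases at their ends. The ends of both are shown because reads there can be told apart only by strand. As no tRNA gene lies between them, the *mt-Nd5* precursor may run further across *mt-Nd6*, which was not tested. Any such reads would likewise be told apart only by strand. Per kb of exon, *mt-Nd5* had 2443 CPM and *mt-Nd6* 95.1 CPM on average. The last 60 bases of each gene are printed 5′ to 3′ on its own strand (mm10, chrM:13506-13565 plus strand for *mt-Nd5*, chrM:13552-13611 minus strand for *mt-Nd6*, from the GENCODE M21 transcripts), with the shared bases in capitals.
mt-Nd5 end: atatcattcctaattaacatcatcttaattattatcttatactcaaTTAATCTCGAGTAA
mt-Nd6 end: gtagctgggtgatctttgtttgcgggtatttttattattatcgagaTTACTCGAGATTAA
The libraries kept the strand of the RNA by the study's methods, but no source used here states whether counting used it. *mt-Nd5*, the large proton-pumping subunit of complex I, had 4996, 4530 and 4247 CPM in HET animals 505, 506 and 508, against 4225, 3839 and 4902 CPM in WT animals 510, 511 and 513. Its genotypes overlapped, with a fold change of 0.09 (SE 0.16, edgeR adjusted p = 0.738). Per 100 counts of *mt-Nd5*, *mt-Nd6* had 0.823, 0.713 and 0.729 counts in HET, against 1.54, 2.04 and 0.989 in WT, so that the separation held relative to its neighbour.

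The other genes read from the minus strand are 8 tRNA genes, which were looked at after the values of *mt-Nd6* were seen. They summed to 5.35, 4.49 and 5.92 CPM in HET animals 505, 506 and 508, against 9.86, 9.59 and 5.78 CPM in WT animals 510, 511 and 513. WT 513 lay within the HET range and the other WT animals above it. The 14 plus-strand tRNA genes summed to 207, 251 and 191 CPM in HET, against 239, 208 and 218 CPM in WT, with full overlap. Most of that sum came from *mt-Tl1* (91.4 to 128 CPM, fold change 0.10) and *mt-Tw* (64.3 to 88.8 CPM, -0.13). Among the minus-strand genes, *mt-Tp* had a fold change of -0.94 (SE 0.26, edgeR adjusted p = 0.166) and *mt-Te* one of -0.90 (SE 0.30, adjusted p = 0.179), both near 1 to 3 CPM at most. A plus-strand tRNA gene, *mt-Ts2*, also lay below WT, at under 1 CPM (-1.81, SE 0.47, adjusted p = 0.166). *mt-Tl2*, on the plus strand too, had 2.42, 2.39 and 1.62 CPM in HET, against 4.19, 3.96 and 2.04 CPM in WT (-0.66, SE 0.30). Other plus-strand fold changes were -0.57 for *mt-Th*, -0.42 for *mt-Tf*, -0.28 for *mt-Tv*, -0.26 for *mt-Tm*, -0.25 for *mt-Ti* and 0.11 for *mt-Tt*. Negative fold changes were therefore not confined to the minus strand.

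Sums of astrocyte and neuron markers are given beside these values because they, too, differed between animals. The 8 astrocyte markers, 6 with a positive and 2 with a negative fold change, summed to 12674, 12052 and 11526 CPM in HET animals 505, 506 and 508, against 8321, 8309 and 12678 CPM in WT animals 510, 511 and 513. WT 513 was at the HET level for astrocyte markers and was the WT animal nearest to HET in *mt-Nd6*. The 10 neuron markers, all with a negative fold change (median -0.46), summed to 2709, 4336 and 4730 CPM in HET, against 5247, 5618 and 4988 CPM in WT, without overlap. Among the HET animals, 505 had the lowest neuron sum, the highest astrocyte sum and the highest *mt-Nd6*. The part of these cell types in the *mt-Nd6* values was not tested. In bulk RNA, fewer cells of a type cannot be told apart from less RNA per cell.

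**Figure D1:**
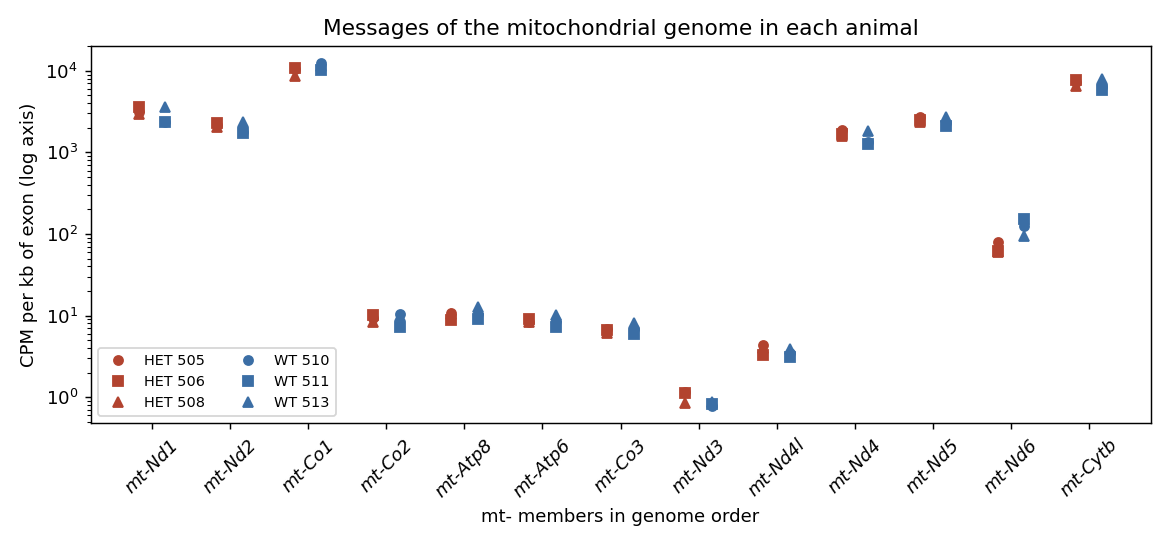
Level of the 13 mt- members in each animal, in CPM per kb of exon on a log axis, with the genes in genome order, HET animals in red at the left and WT animals in blue at the right of each gene. The 6 genes from *mt-Co2* to *mt-Nd4l* lie between 0.929 and 10.3 CPM per kb on average, those around them on the plus strand between 1603 and 10706, and *mt-Nd6* is the gene whose genotypes separate.

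The plus-strand messages outside one stretch of the genome were the most abundant members and overlapped between genotypes. These are *mt-Nd1*, *mt-Nd2*, *mt-Nd4* and *mt-Nd5* of complex I, *mt-Cytb* of complex III and *mt-Co1*, the catalytic subunit of complex IV. *mt-Co1* had 16100, 16941 and 13213 CPM in HET animals 505, 506 and 508, against 19231, 15872 and 17891 CPM in WT animals 510, 511 and 513 (-0.20, SE 0.19, edgeR adjusted p = 0.522). *mt-Cytb* had 8468, 8747 and 7463 CPM in HET, against 7217, 6656 and 9074 CPM in WT (0.10, SE 0.18, adjusted p = 0.723). WT 513 had the highest *mt-Cytb* level and WT 511 the lowest, so the WT animals spanned the HET range.

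The complex I messages of the plus strand behaved alike. *mt-Nd1* had 2976, 3420 and 2830 CPM in HET, against 2267, 2269 and 3454 CPM in WT (0.21, SE 0.20, edgeR adjusted p = 0.52). *mt-Nd2* had 2262, 2390 and 2119 CPM in HET, against 1862, 1798 and 2449 CPM in WT (0.15, SE 0.16, adjusted p = 0.558). *mt-Nd4* had 2574, 2336 and 2217 CPM in HET, against 1866, 1731 and 2526 CPM in WT (0.22, SE 0.17, adjusted p = 0.437). For all 3 messages, WT 510 and WT 511 were the lowest animals and WT 513 was within or above the HET range. Without WT 513, the fold change of *mt-Nd1* was 0.43 and that of *mt-Nd4* 0.39.

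Within the mitochondrial messages, *mt-Co1* took a smaller share in HET. Of the counts of the 7 mt- members outside the stretch described next, it held 43.0%, 44.1% and 41.1% in HET animals 505, 506 and 508, against 52.4%, 49.2% and 44.4% in WT animals 510, 511 and 513. The genotypes did not overlap, but HET 506 and WT 513 differed by less than the WT animals did among themselves. The share of *mt-Nd1* was 7.96%, 8.91% and 8.81% in HET, against 6.17%, 7.04% and 8.56% in WT, which overlapped. *mt-Cytb* took a larger share in HET, at 22.6%, 22.8% and 23.2%, against 19.7%, 20.6% and 22.5% in WT, also without overlap. Shares of the same total depend on each other, so the *mt-Cytb* difference is not separate from that of *mt-Co1*. The total also holds *mt-Nd4* and *mt-Co1*, part of which is affected by the copy described next.

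The stretch from *mt-Co2* to *mt-Nd4l* was nearly empty in all animals. Its 6 members, *mt-Co2* and *mt-Co3* of complex IV, *mt-Atp8* and *mt-Atp6* of complex V and *mt-Nd3* and *mt-Nd4l* of complex I, had 12 to 377 counts per animal, against 77757 to 1000966 for the 6 other plus-strand messages. All of these but *mt-Atp8* were compared with a copy on chromosome 1 of mm10, and *mt-Atp8* lies between 2 of the compared genes and was not itself compared. The copy is annotated as separate pseudogenes between chr1:24611535-24616197, which themselves had 93 to 1003 counts. The first 681 bases of *mt-Co2* and *Gm28661* differ at 0 positions, as do *mt-Atp6* and *Gm10925* over 678 bases, *mt-Co3* and *Gm28437* over 783 bases, and *mt-Nd4l* and *Gm10222* over 294 bases. *mt-Nd3* and *Gm28438* differ at 1 of 345 positions.

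The identity is shown for the first 90 bases of *mt-Co2* and of its copy (mm10, chrM:7013-7102 plus strand and chr1:24615476-24615565 minus strand, 5′ to 3′, from the GENCODE M21 transcripts), which no read within them can tell apart.
mt-Co2: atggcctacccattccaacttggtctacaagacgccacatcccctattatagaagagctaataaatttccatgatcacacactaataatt
Gm28661: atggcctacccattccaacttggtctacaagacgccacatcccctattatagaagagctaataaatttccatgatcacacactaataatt
No source used here states how the counting treated reads that match both places, so the values of these 6 members are uncertain. Part of 2 abundant messages is affected too: the first 876 of 1378 bases of *mt-Nd4* are identical in *Gm28439*, and the last 492 of 1545 bases of *mt-Co1* differ from *Gm29216* at 6 positions. Their levels are therefore not comparable with those of other messages, though the same bases are affected in every animal.

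With that limit, the 6 members of the stretch did not separate the genotypes. *mt-Co2* had 6.37, 6.90 and 5.75 CPM in HET animals 505, 506 and 508, against 7.24, 4.99 and 6.77 CPM in WT animals 510, 511 and 513 (0.0017, SE 0.17, edgeR adjusted p = 0.995). The other 5 had fold changes of -0.10 for *mt-Atp8*, -0.08 for *mt-Co3*, -0.01 for *mt-Atp6*, 0.16 for *mt-Nd4l* and 0.32 for *mt-Nd3*, the last at 0.269 to 0.397 CPM. *mt-Atp8* and *mt-Atp6* share 43 bases and *mt-Nd4l* and *mt-Nd4* share 7, which adds to the uncertainty of each.

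**Figure D2:**
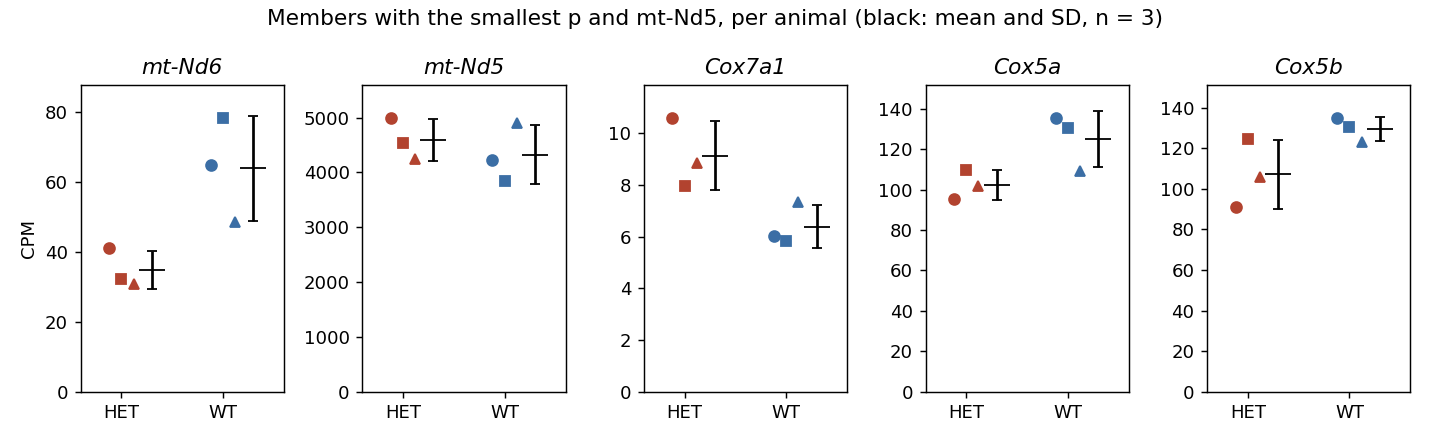
CPM of *mt-Nd6*, its neighbour *mt-Nd5*, *Cox7a1*, *Cox5a* and *Cox5b* in each animal, HET at the left and WT at the right of each panel (circle, square and triangle are animals 505, 506 and 508 in HET and 510, 511 and 513 in WT), with the mean and SD of 3 animals in black and axes that start at 0. *mt-Nd6* lies at 31.0 to 41.1 CPM in HET and 48.5 to 78.4 CPM in WT, *Cox7a1* at 7.97 to 10.6 CPM in HET and 5.83 to 7.33 CPM in WT, and the other 3 overlap.

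Nuclear subunits of complex IV, cytochrome c oxidase, showed the widest range of fold changes, from -0.72 to 0.52, with a median of -0.13 and 14 of 17 negative. *Cox7a1*, the isoform of subunit 7a known from heart and skeletal muscle (chr7:30184144-30186078), had 10.6, 7.97 and 8.85 CPM in HET animals 505, 506 and 508, against 6.01, 5.83 and 7.33 CPM in WT animals 510, 511 and 513. Every HET animal lay above every WT animal, with a fold change of 0.52 (SE 0.16, edgeR adjusted p = 0.168). DESeq2 on 6 animals gave 0.51 with an adjusted p of 0.0544, and edgeR without WT 513 gave 0.61 with an adjusted p of 0.0594, whereas with genetic sex as a covariate the adjusted p was 0.499 by edgeR and 0.42 by DESeq2. Its widely expressed counterpart *Cox7a2* had 89.8, 108 and 96.2 CPM in HET, against 119, 106 and 98.8 CPM in WT (-0.14, SE 0.11, adjusted p = 0.428). Per kb of exon, *Cox7a1* made up 17.2%, 11.5% and 13.97% of both isoforms in HET and 8.21%, 8.85% and 11.6% in WT, where HET 506 and WT 513 were level.

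*Cox6a2* and *Cox4i2*, tissue isoforms of other complex IV subunits, lay on the other side. *Cox6a2*, the heart and muscle isoform of subunit 6a, had 0.661, 0.797 and 0.467 CPM in HET animals 505, 506 and 508, against 1.33, 0.957 and 0.890 CPM in WT animals 510, 511 and 513 (-0.72, SE 0.29, edgeR adjusted p = 0.206). *Cox4i2*, the isoform of subunit 4 found in lung, had 5.84, 6.54 and 4.50 CPM in HET, against 7.95, 6.85 and 6.70 CPM in WT (-0.35, SE 0.17, adjusted p = 0.254). Neither overlapped between genotypes, and both were minor forms: per kb of exon, *Cox4i2* was 3.57% ± 0.55 of both subunit 4 isoforms in HET and 4.48% ± 0.28 in WT, and *Cox6a2* 0.308% ± 0.066 of both subunit 6a isoforms in HET and 0.435% ± 0.065 in WT (SD, n = 3 each). The major forms *Cox4i1* (-0.0073, SE 0.11, adjusted p = 0.969) and *Cox6a1* (-0.21, SE 0.13, adjusted p = 0.329) overlapped between genotypes.

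*Cox5a* and *Cox5b*, nuclear subunits that every complex IV contains, were among the members with the smallest p. *Cox5a* had 95.3, 110 and 102 CPM in HET animals 505, 506 and 508, against 136, 130 and 109 CPM in WT animals 510, 511 and 513 (-0.29, SE 0.11, edgeR adjusted p = 0.197). HET 506 and WT 513 were nearly equal, and without WT 513 the fold change was -0.39 with an adjusted p of 0.071. *Cox5b* had 91.1, 125 and 106 CPM in HET, against 135, 131 and 123 CPM in WT (-0.27, SE 0.12, adjusted p = 0.237), with HET 506 above WT 513.

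The remaining complex IV members overlapped or were barely detected. *Cox8a*, the widely expressed form of subunit 8, had a fold change of -0.21 (SE 0.11, edgeR adjusted p = 0.276), *Cox7b* -0.14, *Cox6b1* -0.13, *Cox7a2l*, which helps to join complexes III and IV, -0.11, and *Ndufa4*, first assigned to complex I and now counted with complex IV, -0.12. *Cox6b2*, the testis isoform of subunit 6b, had 63.9, 57.2 and 47.9 CPM in HET, against 54.9, 44.0 and 55.7 CPM in WT (0.13, SE 0.14, adjusted p = 0.561). *Cox6c2*, which GENCODE M21 annotates as a processed pseudogene, lay above WT in every HET animal at under 0.5 CPM (0.39, SE 0.28, adjusted p = 0.395) and may share reads with *Cox6c*. The muscle isoform *Cox8b* had 1 to 4 counts per animal and *Cox7b2* 1 to 7, and *Cox8c* had 0 counts in every animal, so none of the 3 was tested.

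Complex I, the NADH dehydrogenase, contributed 35 tested nuclear subunits with a median fold change of -0.08, of which 25 were negative and 0 separated the genotypes. *Ndufs7*, an iron-sulphur subunit of the arm that passes electrons to ubiquinone, had 57.0, 68.6 and 62.1 CPM in HET animals 505, 506 and 508, against 77.3, 76.0 and 64.2 CPM in WT animals 510, 511 and 513 (-0.21, SE 0.11, edgeR adjusted p = 0.269). *Ndufa10*, an accessory subunit of the membrane arm, had 103, 127 and 120 CPM in HET, against 142, 142 and 122 CPM in WT (-0.21, SE 0.11, adjusted p = 0.273). In both genes HET 506 lay above WT 513, and WT 510 and WT 511 were the highest animals. *Ndufa6*, another accessory subunit, had a fold change of -0.14 (SE 0.11).

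The 3 other nuclear members of this complex by name were not tested. *Ndufs6b*, *Ndufb4c* and *Ndufa11b*, all annotated as processed pseudogenes in GENCODE M21, had 0 to 6 counts per animal. *Ndufa4l2*, a paralog of *Ndufa4* that is known to be induced by low oxygen, was kept apart and had 22.8, 22.7 and 10.2 CPM in HET, against 23.3, 17.4 and 17.7 CPM in WT (-0.07, SE 0.29, edgeR adjusted p = 0.887). HET 508 was the lowest animal there, and without it the fold change was 0.22.

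Complex II, succinate dehydrogenase, has 4 subunits, and all 4 had a negative fold change (median -0.13). *Sdha*, the flavoprotein that oxidises succinate, had 313, 321 and 318 CPM in HET animals 505, 506 and 508, against 353, 332 and 326 CPM in WT animals 510, 511 and 513. The genotypes did not overlap, yet the fold change was small, at -0.09 (SE 0.09, edgeR adjusted p = 0.549). *Sdhd*, a membrane anchor, had 97.1, 116 and 108 CPM in HET, against 131, 131 and 108 CPM in WT (-0.21, SE 0.11, adjusted p = 0.293), and *Sdhb*, the iron-sulphur subunit, had a fold change of -0.17 (SE 0.10, adjusted p = 0.307). *Sdhc*, the other anchor, was nearest to 0 with -0.02 (SE 0.10).

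All 8 nuclear members of complex III, which passes electrons to cytochrome c, had a negative fold change (median -0.09). *Uqcrc1*, a core protein, had 168, 193 and 188 CPM in HET animals 505, 506 and 508, against 199, 199 and 195 CPM in WT animals 510, 511 and 513, without overlap (-0.11, SE 0.09, edgeR adjusted p = 0.453). *Uqcrc2*, the other core protein, had 147, 174 and 163 CPM in HET, against 189, 186 and 166 CPM in WT (-0.16, SE 0.10, adjusted p = 0.345). *Uqcrfs1*, the Rieske iron-sulphur protein, had a fold change of -0.13 (SE 0.10) and overlapped.

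Complex V, ATP synthase, had 18 tested nuclear members with a median of -0.08, 14 of them negative and 0 separated. *Atp5b*, the catalytic beta subunit and the most abundant nuclear member in CPM, had 852, 1043 and 1010 CPM in HET animals 505, 506 and 508, against 1187, 1128 and 1001 CPM in WT animals 510, 511 and 513 (-0.19, SE 0.13, edgeR adjusted p = 0.379). *Atp5a1*, the alpha subunit, had a fold change of -0.13 (SE 0.12), *Atp5d* of the central stalk -0.18 (SE 0.12) and *Atp5pb* of the outer stalk -0.13 (SE 0.10). The 3 genes of the ring subunit c differed: *Atp5g1* had a fold change of -0.19 (SE 0.12, adjusted p = 0.346), while *Atp5g2* stood at 0.0013 (SE 0.09) and *Atp5g3* at -0.0011 (SE 0.09). Per kb of exon, *Atp5g1* was 20.1%, 22.4% and 21.6% of *Atp5g1* and *Atp5g3* together in HET, against 23.5%, 24.7% and 22.9% in WT, without overlap. *Atp5o* occurs as 2 overlapping gene models with the fold changes -0.08 and -0.10, which are uncertain because no source used here states how reads in 2 genes were counted.

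**Figure D3:**
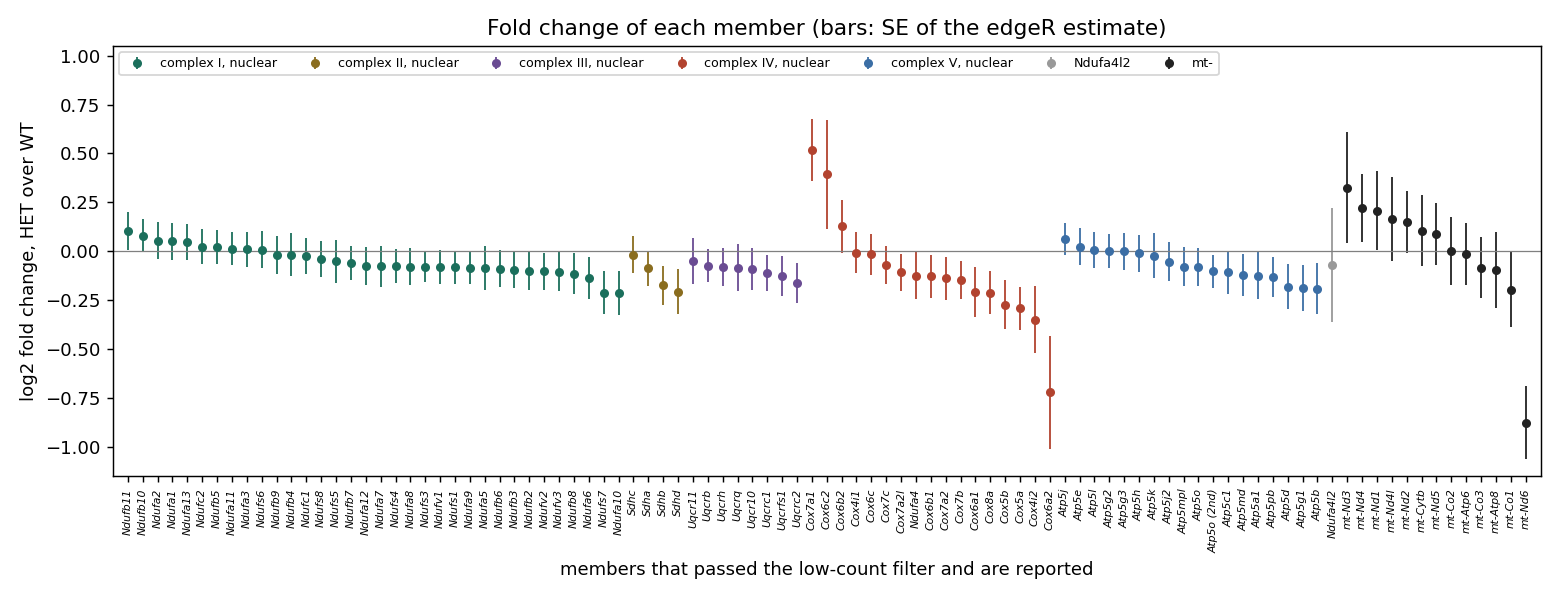
Log2 fold change of the tested members reported here, HET over WT, grouped by complex for nuclear members with *Ndufa4l2* and the mt- members at the right, bars showing the SE of the edgeR estimate. Most nuclear subunits lie between -0.25 and 0.1, and *mt-Nd6* (-0.88), *Cox6a2* (-0.72) and *Cox7a1* (0.52) lie farthest from 0.

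Nuclear medians of the complexes were -0.08 for complex I, -0.13 for II, -0.09 for III, -0.13 for IV and -0.08 for V. The spread between animals was taken as the SD within a genotype of an animal's mean log2 CPM deviation from WT. It was 0.0841 to 0.112 over the 5 complexes and includes shifts that all complexes of an animal share. The spread of differences between complexes within an animal was not taken, so these medians were not ranked. By single members, HET 505 was the lowest animal in 57 of 83 nuclear members and WT 510 the highest in 51, while HET 506 was the highest in 27.

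Averaged over all nuclear members, HET animals 505, 506 and 508 deviated from the WT mean by -0.16, 0.05 and -0.12, against 0.09, -0.03 and -0.06 for WT animals 510, 511 and 513. HET 506 lay above 2 of the 3 WT animals, so the genotypes overlapped. HET 505, the lowest animal, also had the lowest sum of neuron markers (2709 CPM, against 4336 to 5618 CPM in the other 5 animals) and the highest sum of the 8 choroid plexus markers (1541 CPM, against 725 and 392 CPM in the other HET animals and 86.4 to 270 CPM in WT). The same animal had the highest sums of the 6 meningeal fibroblast markers (1342 CPM, against 163 to 699 CPM in the others) and of the 8 endothelium and pericyte markers (90.8 CPM, against 44.0 to 54.6 CPM). The other HET animals did not follow that order. HET 508, at -0.12, had the highest neuron sum (4730 CPM) and the lowest choroid plexus sum of the HET animals. HET 506, at 0.05, had a neuron sum of 4336 CPM, below every WT animal. The nuclear median was -0.04 without HET 505, -0.15 without HET 506, -0.12 without WT 513 and -0.06 without WT 510. The part of these cell types in the nuclear values was not tested.

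**Figure D4:**
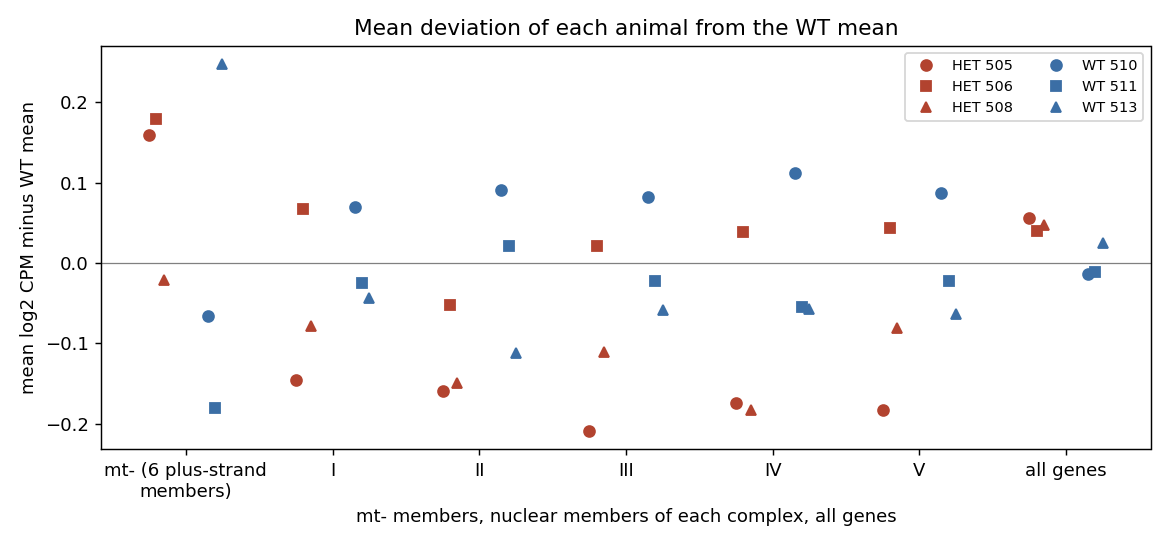
Mean log2 CPM of each animal minus the WT mean, averaged over the 6 plus-strand mt- members outside the nearly empty stretch, over the nuclear members of each complex, and over all genes tested, HET in red at the left and WT in blue at the right. HET 505 and HET 508 lie below 0 in all 5 nuclear groups and HET 506 above 0 in all but complex II, while WT 513 is the highest animal for the mt- members.

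The order of the animals differed between nuclear and mt- members. The 6 plus-strand mt- members deviated by 0.16, 0.18 and -0.02 in HET animals 505, 506 and 508, against -0.07, -0.18 and 0.25 in WT animals 510, 511 and 513. HET 505 was the lowest animal for nuclear members and had the highest ratio of mt- to nuclear counts, at 4.23. The mt- median fold change exceeded the nuclear median by 0.17. As means per animal, the HET deviation was 0.0069 for all 13 mt- members and -0.077 for the nuclear members. The difference between these 2 means had an SD between animals of 0.171. That SD belongs to the means and is no measure of the spread of the medians. With the 6 members of that nearly empty stretch left out, an alternative chosen after seeing the data, the mt- median exceeded the nuclear one by 0.18. Leaving out 1 animal moved the difference of medians between 0.06 (without HET 505) and 0.30 (without WT 513). It was 0.11 without WT 510, 0.10 without WT 511 and 0.10 with genetic sex as a covariate in either tool.

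As a share of all counts, the mt- members took 3.88%, 3.82% and 3.22% in HET animals 505, 506 and 508, against 3.62%, 3.19% and 3.998% in WT animals 510, 511 and 513. The 89 nuclear members took 0.919%, 1.03% and 0.957% in HET, against 1.07%, 1.01% and 0.972% in WT. The mean ratio of mt- to nuclear counts was 3.76 ± 0.44 in HET and 3.55 ± 0.50 in WT (SD, n = 3 each), a difference smaller than either SD. Both libraries of an animal agreed to within 0.0787 percentage points in the mt- share, so animals differed far more than their libraries.

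Promoters of nuclear members were searched because such genes are known to share binding sites of nuclear respiratory factor 1 (NRF1), GABP and YY1. RefSeq windows (GRCm38.p6, 250 bases before to 50 after the start, 1 per gene) matched 66 nuclear members by symbol. The NRF1 string GCGCANGCG, on either strand, occurred in 19 of 66 members (28.8%), against 12.2% of the windows of 12694 other tested genes. The YY1 string AAGATGGCG occurred in 9.09% against 2.69%, the GABP string CCGGAAG in 24.2% against 15.7%, and the ERR string TCAAGGTCA in 3.03% against 0.236%. The SP1 string GGGCGG occurred in 40.9% of members against 61.6% of the other genes, and AAAGTT, the core motif of MYT1L, in 16.7% against 11.0%. No string contains another, and a match is a description of the letters only.

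The promoters of 2 complex II genes show how dense these letters can be. Bases before the start are printed 5′ to 3′ on the strand of the gene, with NRF1 and GABP strings in capitals, for *Sdhd* (chr9:50603850-50603999, minus strand) and *Sdha* (chr13:74350281-74350390, minus strand), both from RefSeq on GRCm38.p6.
Sdhd promoter: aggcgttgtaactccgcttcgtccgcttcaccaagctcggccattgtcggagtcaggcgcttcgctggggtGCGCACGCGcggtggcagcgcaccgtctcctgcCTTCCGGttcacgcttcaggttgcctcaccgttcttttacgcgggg
Sdha promoter: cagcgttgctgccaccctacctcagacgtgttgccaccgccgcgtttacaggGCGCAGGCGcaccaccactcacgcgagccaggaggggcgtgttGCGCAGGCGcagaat
The fold changes of these genes were -0.21 and -0.09, as given above, and neither window holds AAAGTT.

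Genes outside the name pattern completed the pathway. Of 20 tested gene models of 19 subunits and partners, in which *Nnt* stands as 2 overlapping models with nearly equal values, 13 had a negative fold change (median -0.10) and 0 passed the edgeR threshold. *Ckmt1*, the mitochondrial creatine kinase that hands ATP to creatine, had 56.9, 101 and 101 CPM in HET animals 505, 506 and 508, against 130, 136 and 108 CPM in WT animals 510, 511 and 513, without overlap (-0.53, SE 0.22, edgeR adjusted p = 0.215). *Etfa* and *Etfb*, which bring electrons from fatty acid oxidation to ubiquinone, lay on the other side (0.32, SE 0.12, and 0.30, SE 0.11). Without WT 513 edgeR gave *Etfb* an adjusted p of 0.0693, in a fit that called 12.3% of genes higher and 5.95% lower. The same fit is quoted for other genes below. With any other single animal left out, or with genetic sex as a covariate, edgeR called no gene at all. *Cyc1*, the cytochrome c1 of complex III, had -0.25 (SE 0.11) and *Ndufab1*, the acyl carrier protein of complex I, -0.12 (SE 0.08).

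*Nnt*, the proton-pumping transhydrogenase, is known to carry a deletion of several exons in C57BL/6J but not in C57BL/6N. It had 19.8, 17.4 and 17.5 CPM in HET animals 505, 506 and 508, against 12.1, 11.9 and 17.8 CPM in WT animals 510, 511 and 513 (0.39, SE 0.17, edgeR adjusted p = 0.224). WT 513 was within the HET range, and without it the fold change was 0.59 with an edgeR adjusted p of 0.0276. Without WT 510 or WT 511 it was 0.29, with edgeR adjusted p of 0.501 and 0.549. Gene counts do not show which exons were read, so the substrain was not tested.

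Of 44 assembly factors, 31 had a negative fold change (median -0.06). *Cox11* and *Cox18*, which place copper and insert a subunit in complex IV, had -0.32 (SE 0.11) and -0.37 (SE 0.14), and *Sdhaf4*, a factor for complex II, had 0.32 (SE 0.12). None passed the edgeR threshold, but *Cox11* had an adjusted p of 0.0844 by DESeq2 on 6 animals, and without WT 513 edgeR gave 0.0744 for *Cox18* and 0.0766 for *Sdhaf4*. In 6 of the 44 every HET animal lay below every WT animal and in 2 above, against the 13.5% and 15.5% of all genes given above.

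Genes of mitochondrial DNA maintenance and RNA processing were balanced, with 16 of 30 negative and a median of -0.03. *Twnk*, the mitochondrial DNA helicase, had 12.96, 15.2 and 13.3 CPM in HET, against 18.7, 17.8 and 15.4 CPM in WT (-0.33, SE 0.12, edgeR adjusted p = 0.189), and without WT 513 *Twnk* had an adjusted p of 0.0722. *Mterf4* and *Ssbp1*, a regulator of mitochondrial ribosomes and the single-strand binding protein, had 0.21 (SE 0.10) and 0.22 (SE 0.11). *Tfam*, which packages and activates the mitochondrial genome, had -0.04 (SE 0.08), and *Lrpprc*, which stabilises its messages, 0.04 (SE 0.12).

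Among 13 nuclear regulators, *Pprc1*, a coactivator of the PGC-1 family, had 15.6, 15.96 and 16.96 CPM in HET animals 505, 506 and 508, against 20.3, 20.4 and 19.6 CPM in WT animals 510, 511 and 513. The genotypes did not overlap, with a fold change of -0.31 (SE 0.09, edgeR adjusted p = 0.167). DESeq2 on 6 animals gave *Pprc1* an adjusted p of 0.0352, and edgeR without WT 513 one of 0.0772. *Gabpb2*, a GABP subunit, had 0.50 (SE 0.19) and overlapped, with an edgeR adjusted p of 0.0685 without WT 513, *Yy1* had -0.15 (SE 0.08), and *Ppargc1a*, the best known coactivator of the pathway, had -0.07 (SE 0.08). Of 17 citric acid cycle genes, 13 had a negative fold change (median -0.15). In 5 of the 17 (29.4%) every HET animal lay below every WT animal and in 2 (11.8%) above, against 13.5% and 15.5% of all genes. *Suclg2*, the GTP-forming succinyl-CoA ligase subunit, had 0.32 (SE 0.15), and *Idh3b* and *Dlat* had -0.24 (SE 0.11) and -0.31 (SE 0.15), none of them past the threshold.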

How the data were processed

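RNA of 12 libraries, 2 from each of 6 animals, was analysed. The authors mapped 100 bp paired-end reads to mm10 with STAR and deposited raw counts per gene and library, and no source used here names the counter. Their normalised counts and their table of fold changes and p-values were not used. Counts were summed over an animal's 2 libraries, and 3 HET were compared with 3 WT animals by edgeR 4.0.16 under R 4.3.3: genes filtered on counts by genotype, TMM scaling, quasi-likelihood test and Benjamini-Hochberg adjustment over 18264 genes, with calls at an adjusted p under 0.1. DESeq2 1.42.0 served as an alternative. The members and lists were chosen with earlier results of these data known, and a rule set the named genes: all mt- members, per complex the 4 smallest p and the 2 highest levels, isoform pairs, and the 3 smallest p per list with 6 further genes. A gene that this rule picks is not reported here. Of the gene models, 54345 matched GENCODE M21 in ID and position. P-values measure the spread between these animals only. Chi-square between both libraries of an animal per degree of freedom was 1.25 to 1.32, and sampling noise alone would give 1. Alternatives were other normalisations, filters and thresholds, DESeq2, 12 libraries as units, single libraries, each animal left out, and a covariate for genetic sex.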

Additional observations from a re-analysis of the deposited data

How the results depend on the processing

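edgeR on 6 animals called 0 genes. DESeq2 on 6 animals called 1377 higher and 786 lower in HET, with 1 member higher (*Cox7a1*) and 1 lower (*mt-Nd6*); with genetic sex as a covariate, DESeq2 called 224 higher and 35 lower, with 1 member lower (*mt-Nd6*). Without the low-count filter, edgeR called 1021 higher and 454 lower, with 1 member lower (*mt-Nd6*). Leaving out 1 animal gave 0 to 2294 genes higher and 0 to 1109 lower, and 0 to 1 members higher and 0 to 2 lower; only the fit without WT 513 made calls. Taking 12 libraries as units, which treats both libraries of an animal as independent, called 4244 higher and 3866 lower, with 1 member higher and 19 lower. With a replicate block on the library number these were 4006 and 3571, with 1 and 16; the number pairs no samples (correlation of deviations between genotypes -0.0107). The cause of these differences was not tested. The medians of nuclear and mt- members and of each complex moved by less than the spread between animals under every alternative run. A changed threshold leaves the fold changes as they are, so it could not move the medians. Leaving out 1 animal can hardly shift the mean of a genotype by more than that spread. The comparison with the spread therefore cannot show that the medians are stable. With 1 animal left out they ran from -0.15 to -0.04 for nuclear and 0.0072 to 0.17 for mt- members, and for the nuclear members of complexes from -0.13 to -0.02 (I), -0.18 to -0.10 (II), -0.17 to -0.05 (III), -0.22 to -0.07 (IV) and -0.16 to -0.03 (V).

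Of 68 named genes, 10 changed sign somewhere, none of them past the threshold with 6 animals. *mt-Co2* gave -0.0074 with DESeq2 size factors, -0.0078 with DESeq2, -0.0088 without the filter, -0.0038 with mt- genes left out of the library size, -0.076 with library 2 alone, -0.14 and -0.15 with genetic sex in edgeR and in DESeq2. *Atp5g2* gave -0.0089, -0.0091, -0.0087, -0.0046, -0.041, -0.016 and -0.020 under the same settings. *Atp5g3* gave 0.0038 and 0.0039 on 12 libraries without and with the replicate block, and *mt-Atp6* 0.016 with library 2 alone. Over the animals left out, the ranges were -0.14 to 0.099 for *mt-Co2*, -0.057 to 0.045 for *Atp5g2*, -0.062 to 0.057 for *Atp5g3*, -0.13 to 0.10 for *mt-Atp6*, -0.095 to 0.048 for *Cox4i1*, -0.071 to 0.032 for *Sdhc*, -0.26 to 0.22 for *Ndufa4l2*, -0.054 to 0.15 for *Lrpprc*, -0.20 to 0.027 for *mt-Atp8* and -0.18 to 0.026 for *mt-Co3*.

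With 3 animals a genotype, differences of the size seen in most members could not be told from the spread between animals, and the low counts of the 6 members from *mt-Co2* to *mt-Nd4l* limit what can be said of those messages.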

Other observations

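The 2 ribosomal RNAs of the mitochondrial genome, which are no members, lay below WT in some animals only. *mt-Rnr1* had 495, 678 and 472 CPM in HET animals 505, 506 and 508, against 744, 582 and 724 CPM in WT animals 510, 511 and 513 (-0.32, SE 0.17, edgeR adjusted p = 0.289). *mt-Rnr2* had 1201, 1600 and 1151 CPM in HET, against 1519, 1272 and 1551 CPM in WT (-0.14, SE 0.17, adjusted p = 0.61). HET 505, which had a high level of the plus-strand messages, was low in both ribosomal RNAs, and HET 506 was high in both.

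Markers of other cell types were present in all cultures, and no listed marker was at 0 in every animal. The 6 ependymal markers summed to 1131, 973 and 1019 CPM in HET animals 505, 506 and 508, against 669, 538 and 733 CPM in WT animals 510, 511 and 513. The 8 microglia markers summed to 219, 122 and 115 CPM in HET, against 87.4, 112 and 84.9 CPM in WT. Both lists separated the genotypes, and their part in the values of the respiratory genes was not tested.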
